A study of Homo sapiens with 47 samples.

Results

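The 9 transcription factors *TBXT* (Brachyury), *MIXL1*, *EOMES*, *GSC*, *MESP1*, *SOX17*, *FOXA2*, *GATA6* and *LHX1* were followed in bulk mRNA sequencing of H9 (WA09) human embryonic stem cells (hESCs) as they became neuromesodermal progenitor (NMP)-like cells and then pre-neural progenitors (PNPs) and neural crest (NC). They were chosen by name as a list of lineage factors, and all 9 were found among the 58051 genes listed for each library. The question was which of these factors accompany *TBXT* at 36 h and at the first passage and which stay silent. H9 is an established hESC line, and it was the single line and the single genotype used.

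The 47 libraries comprised 16 conditions. Undifferentiated cells in mTESR1 on Matrigel (t0, n = 3) were the reference. The NMP-like cells (36h, n = 3) had received 36 h of N2B27 without vitamin A. Added to it were the GSK3 inhibitor CHIR-99021, which activates WNT signaling, and FGF2. The other additions were the retinoic acid receptor inverse agonist AGN193109 and the ROCK inhibitor Y-27632. The same 4 additions were kept in every later culture (P1 to P10, n = 3 each and n = 2 at P9), so all conditions after t0 share them. The dose of Y-27632 was not constant, as the paper reports a higher one during the early passages. At P5 and P8, selective detachment gave fractions enriched for epithelial cells, labelled PNPs (EPI, n = 3 each), and for mesenchymal cells, labelled NC (MES, n = 3 each). The replicate numbers r1 to r3 each mark a separate differentiation carried from t0 through the passages. For 36 h against t0 and for the fractions at 1 passage, the p-values describe the spread between differentiations of this 1 line. For the passages the fit pooled 35 whole cultures from the same 3 serially passaged differentiations. Beyond the block it treats them as independent, so its p-values can be too small. RNA came from bulk cultures, so fewer cells expressing a gene and less of its RNA per cell cannot be told apart.

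In the gastrulating embryo, NODAL and WNT signals induce the primitive streak, where epiblast cells turn into mesoderm and definitive endoderm. *TBXT* marks the whole streak and later remains in the NMPs of the tailbud, which supply both spinal cord and paraxial mesoderm. *MIXL1*, *EOMES* and *MESP1* mark nascent mesendoderm and mesoderm, *GSC*, *LHX1* and *FOXA2* the anterior streak and its organizer, and *SOX17*, with *FOXA2* and *GATA6*, the endoderm. High NODAL activity favors the anterior streak and endoderm, and high WNT activity the posterior streak.

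In this course 2 of the 8 factors that could be tested, *TBXT* and *MIXL1*, rose at 36 h, where 0.354% of all genes tested passed as higher, and were still raised at P1, where 3.2% did. They were higher in 3 of 3 differentiations, but at both time points neither passed when the second differentiation was left out, nor at P1 when t0 and P1 were fitted alone. Without the second differentiation their fold changes stayed nearly as large, and at 36 h no gene at all passed. *EOMES*, *GSC* and *MESP1* were above t0 in each 36 h library, *MESP1* only just in r1, but at levels far below those of *MIXL1*. *GATA6* was near t0 in r1 and far above it in r2 and r3. *FOXA2*, *MESP1* and *GATA6* had their 36 h maxima in different differentiations, *FOXA2* in r1 and *MESP1* and *GATA6* in r3. *SOX17* was at or under 2 counts in all 47 libraries, and *LHX1* did not pass the test in any comparison. At P8 *LHX1* was lower than at t0, with a mean count too low to pass. After P3 the remaining signal was mostly that of *TBXT*, *MIXL1* and a low level of *EOMES*.

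*TBXT* (ENSG00000164458) lies on the minus strand of chromosome 6 of GRCh38, from 166157656 to 166168700, and *MIXL1* (ENSG00000185155) on the plus strand of chromosome 1, from 226223618 to 226227054. The bases just upstream of both genes are shown because these are the members that passed at both 36 h and P1 against t0. RefSeq windows (GRCh38.p14) of 250 bases before and 50 bases after a gene start were matched for 5 of the 9 members, *TBXT* (with 2 starts), *MIXL1*, *EOMES*, *GSC* and *GATA6*. *MESP1*, *SOX17*, *FOXA2* and *LHX1* were not matched. Each line below runs 5′ to 3′ on the strand of the gene and holds the bases of the window that lie outside annotated exons of that gene. They are chr6:166168701-166168905 and chr6:166167878-166168101 on the minus strand for the 2 *TBXT* starts, the second of which lies in an intron of the longer transcripts, and chr1:226223414-226223617 on the plus strand for *MIXL1*. Capitals mark matches, on either strand, to the TCF/LEF core CTTTGA, the FOXH1 motif AATNCACA or the T-box motif AGGTGTGA.
TBXT, outer start: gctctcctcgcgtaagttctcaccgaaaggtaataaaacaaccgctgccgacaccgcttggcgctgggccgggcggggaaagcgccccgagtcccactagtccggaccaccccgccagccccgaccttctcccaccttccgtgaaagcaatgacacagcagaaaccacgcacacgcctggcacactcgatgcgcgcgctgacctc
TBXT, inner start: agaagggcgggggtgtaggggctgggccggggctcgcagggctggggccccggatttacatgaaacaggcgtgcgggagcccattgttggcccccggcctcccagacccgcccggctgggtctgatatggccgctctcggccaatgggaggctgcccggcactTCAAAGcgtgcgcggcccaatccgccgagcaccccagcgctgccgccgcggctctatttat
MIXL1: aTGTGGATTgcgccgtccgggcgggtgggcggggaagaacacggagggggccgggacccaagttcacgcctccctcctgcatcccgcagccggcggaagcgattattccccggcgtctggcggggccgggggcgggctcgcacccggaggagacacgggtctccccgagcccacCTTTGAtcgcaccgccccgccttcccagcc

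The *MIXL1* window held 1 TCF/LEF core, 76 bases before the start, and 1 FOXH1 match on the opposite strand, 249 bases before it, counted from the RefSeq start, which lies inside the GENCODE gene and downstream of the last base printed. The inner *TBXT* window held 1 TCF/LEF core on the opposite strand, 87 bases before its RefSeq start, and the outer one held no match to any of the 3 motifs. The windows of *EOMES*, *GSC* and *GATA6* held none either. Of all 35116 windows of this length, 12.9% held the TCF/LEF core, 3.31% the FOXH1 motif and 0.98% the T-box motif, and no 2 of these motifs overlapped in the printed sequences. A match is a string of letters and was not tested as a binding site.

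Values below are normalized counts, which are RSEM expected counts rounded and divided by a TMM size factor over the 47 libraries, unless TPM (RSEM's level per transcript length) is named. The limit of detection was set at 3 counts, so that folds against libraries that never exceed it are lower bounds. To pass, a gene had to have an FDR below 1%, change 2-fold or more and average 100 or more normalized counts over the compared libraries (edgeR quasi-likelihood test, differentiation as block). Library totals ran from 13029491 to 64082859 expected counts, and from 21802304 to 58023045 at t0, 36 h and P1. In single pluripotency genes the libraries labelled 36h r1 and P1 r1 stood nearer to the stem cells than their replicates did. *POU5F1* (OCT4) was at 29163 in P1 r1 against 641 in r2 and 170 in r3, and *NANOG* at 3957 in 36h r1 against 1942 and 86.6. Not every gene went this way. *CDX2*, named after its values were seen, was farthest from t0 in P1 r1, at 14457 against 6071 and 2104. A distance over all genes was not computed. For several members the fold change or the call at 36 h and P1 is also given without these libraries.

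*TBXT*, the T-box factor that defines the streak and the NMP state, had 16.6, 8.29 and 5.55 normalized counts at t0 in r1, r2 and r3, and 3290, 27924 and 27664 at 36 h. Every 36 h library stood above every t0 library, and r1 was the lowest of the 36 h libraries. Within a differentiation the fold was 198, 3369 and 4980 for the 3 differentiations in turn. The log2 change was 10.67 (SE 0.90, edgeR adjusted p = 0.008). *MIXL1*, a homeobox factor of nascent mesendoderm, had 39.4, 39.4 and 56.3 at t0 and 8612, 57046 and 34600 at 36 h. Again r1 was the lowest, and the groups did not overlap. The log2 change was 9.23 (SE 0.60, edgeR adjusted p = 0.00582).

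Of the 8 members that could be tested between 36 h and t0, these 2 passed, both higher, where 0.354% of the 18925 genes tested passed as higher and 0.766% passed in either direction. Counting libraries instead, 5 of the 8 (*TBXT*, *MIXL1*, *EOMES*, *GSC* and *MESP1*) had every 36 h library above every t0 library, as did 18.6% of all genes tested. *GATA6* is left out because it had 1 count in 36h r1, the same as in 2 t0 libraries, a restriction that the 18.6% does not carry. Both calls were lost when the second differentiation was left out, a fit in which none of the 18726 genes tested passed. Without it the log2 fold changes were still 10.02 for *TBXT* (edgeR adjusted p = 0.0926) and 8.58 for *MIXL1* (edgeR adjusted p = 0.0626). Over the 13 alternatives the adjusted p ran from 6.38e-18 to 0.0926 for *TBXT* and from 5.23e-35 to 0.0626 for *MIXL1*. Without the library 36h r1 the log2 fold changes were 11.98 and 9.83, and both passed.

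**Figure D1:**
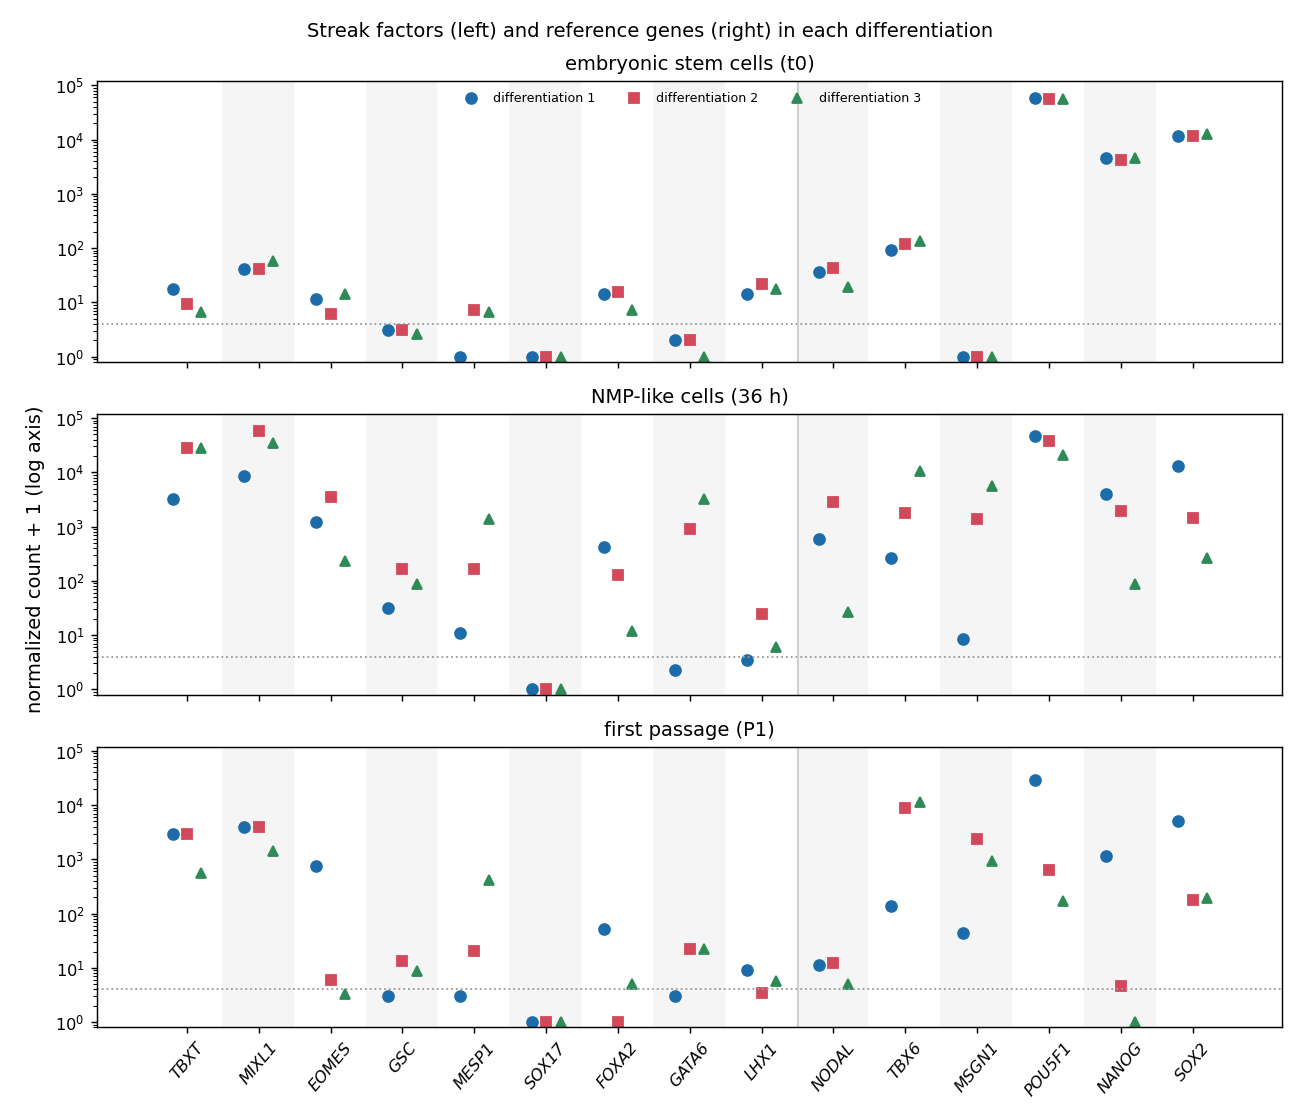
Normalized count + 1 on a log axis for the 9 factors (left of the gray line) and for 6 reference genes (right) at t0, 36 h and P1, with 1 point per differentiation (blue circle r1, red square r2, green triangle r3). The dotted line marks the level of 3 counts. At 36 h *FOXA2* is highest in r1 at 429 and *MESP1* and *GATA6* are highest in r3 at 1396 and 3194, while *SOX17* is at 0 throughout.

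*EOMES*, a T-box factor required for endoderm and early mesoderm, had 10.4, 5.18 and 13.5 normalized counts at t0 and 1239, 3473 and 227 at 36 h. Every 36 h library was above every t0 library, r2 highest and r3 lowest. The mean change was 6.65 on the log2 scale (SE 1.00) and missed the 1% FDR (edgeR adjusted p = 0.0219). It passed without the replicate block (7.36, edgeR adjusted p = 0.00874), without replicate 3 (8.07, 4.9e-05), with DESeq2 and with no filter on low counts, within a range of 4e-07 to 0.109 over the alternatives. *GSC*, the homeobox repressor of the organizer, did not exceed 3 counts at t0 and was at 30.7, 166 and 88.3 at 36 h. It was at least 33.2-fold higher at 36 h (edgeR adjusted p = 0.013, in a range of 1.62e-08 to 0.111 over the alternatives). Its mean over the compared libraries, 48.5, was under the minimum of 100, so it could not pass.

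*FOXA2*, a forkhead factor of anterior streak, node and endoderm, had 13.5, 14.5 and 6.35 normalized counts at t0 and 429, 129 and 10.8 at 36 h. The r3 library was inside the range of t0. The log2 change was 3.19 (SE 0.86, edgeR adjusted p = 0.0777), and it passed with DESeq2 and without replicate 3, at 4.08 (edgeR adjusted p = 0.00371, with a range of 0.000749 to 0.3 over the alternatives). *LHX1*, a LIM homeobox factor of the organizer and of later intermediate mesoderm and interneurons, had 13.5, 20.7 and 16.7 at t0 and 2.46, 23.1 and 5.00 at 36 h. The groups overlapped, and the log2 change was -1.11 (SE 0.65, edgeR adjusted p = 0.322). *SOX17*, the SRY-box factor of definitive endoderm, had no count at t0, 36 h or P1, which allows up to 3 counts in each library, and it was too low to be tested.

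*MESP1*, a bHLH factor of the earliest mesoderm leaving the streak, had 0, 6.22 and 5.55 normalized counts at t0 and 9.82, 162 and 1396 at 36 h. The groups did not overlap, though r1 stood only just above t0. The mean change of 6.56 on the log2 scale (SE 0.81) missed the threshold (edgeR adjusted p = 0.0156). It passed with DESeq2, with no filter on low counts and at an FDR under 5%, in a range of 7.1e-15 to 0.0635 over the 11 alternatives in which it was tested, which do not include the fit without replicate 3 or the stricter filter. *GATA6*, a zinc finger factor of endoderm and cardiac mesoderm, was at or under 1.04 in the t0 libraries and at 1.23, 908 and 3194 at 36 h. It was thus near t0 in r1 and high in the other differentiations. The mean of the 36 h group was at least 477-fold above t0 and missed the threshold (edgeR adjusted p = 0.0129). *GATA6* passed without the library 36h r1 (edgeR adjusted p = 0.00998), with DESeq2, with no filter and with all whole cultures in the fit (in a range of 7.74e-06 to 0.0131 over the 9 alternatives in which it could be tested, since it did not pass the low-count filter with no replicate block, with the stricter filter or without replicate 2 or 3). An antisense gene, *GATA6-AS1*, shares 436 bases with *GATA6* and reached at most 5.93 TPM. The strand setting of the counting is not given in the sources used here, so reads in those bases cannot be assigned with certainty.

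Read per transcript length, *MIXL1* was the most abundant member in every 36 h library, at 234, 1319 and 821 TPM, followed by *TBXT* at 62.3, 477 and 493 TPM. The order below them differed between differentiations. In r1 *EOMES* (19.1 TPM) and *FOXA2* (7.45 TPM) came next, and *MESP1* and *GATA6* were at 0.53 and 0.03 TPM. In r2 *EOMES* was at 48.1 TPM, *GATA6* at 8.98, *MESP1* at 6.95 and *GSC* at 5.05. In r3 *MESP1* (51.3 TPM) and *GATA6* (33.1 TPM) came next, *EOMES* was at 3.10 and *FOXA2* at 0.18.

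Other genes split the differentiations in a like manner at 36 h. *NODAL*, the ligand that induces the streak, had 593, 2783 and 25.8 normalized counts in r1, r2 and r3, lowest where *FOXA2* and *EOMES* were lowest. *SOX2*, shared by hESCs and neural progenitors, had 12991, 1435 and 267, highest where *FOXA2* was highest. *TBX6* and *MSGN1*, T-box and bHLH factors of presomitic mesoderm, had 263, 1758 and 10399 and 7.37, 1374 and 5687, highest where *MESP1* and *GATA6* were highest. These values stand beside the members as measured, and their part in the members' differences was not tested.

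Without the library 36h r1, *FOXA2* was at 2.17 on the log2 scale in place of 3.19 (edgeR adjusted p = 0.148), the largest shift among *EOMES*, *GSC*, *MESP1* and *FOXA2*. *EOMES* was then at 6.53 (edgeR adjusted p = 0.0608) and *MESP1* at 6.65 (0.0282), and *GSC* had an adjusted p of 0.0165 in edgeR, so none of the 4 passed.

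**Figure D2:**
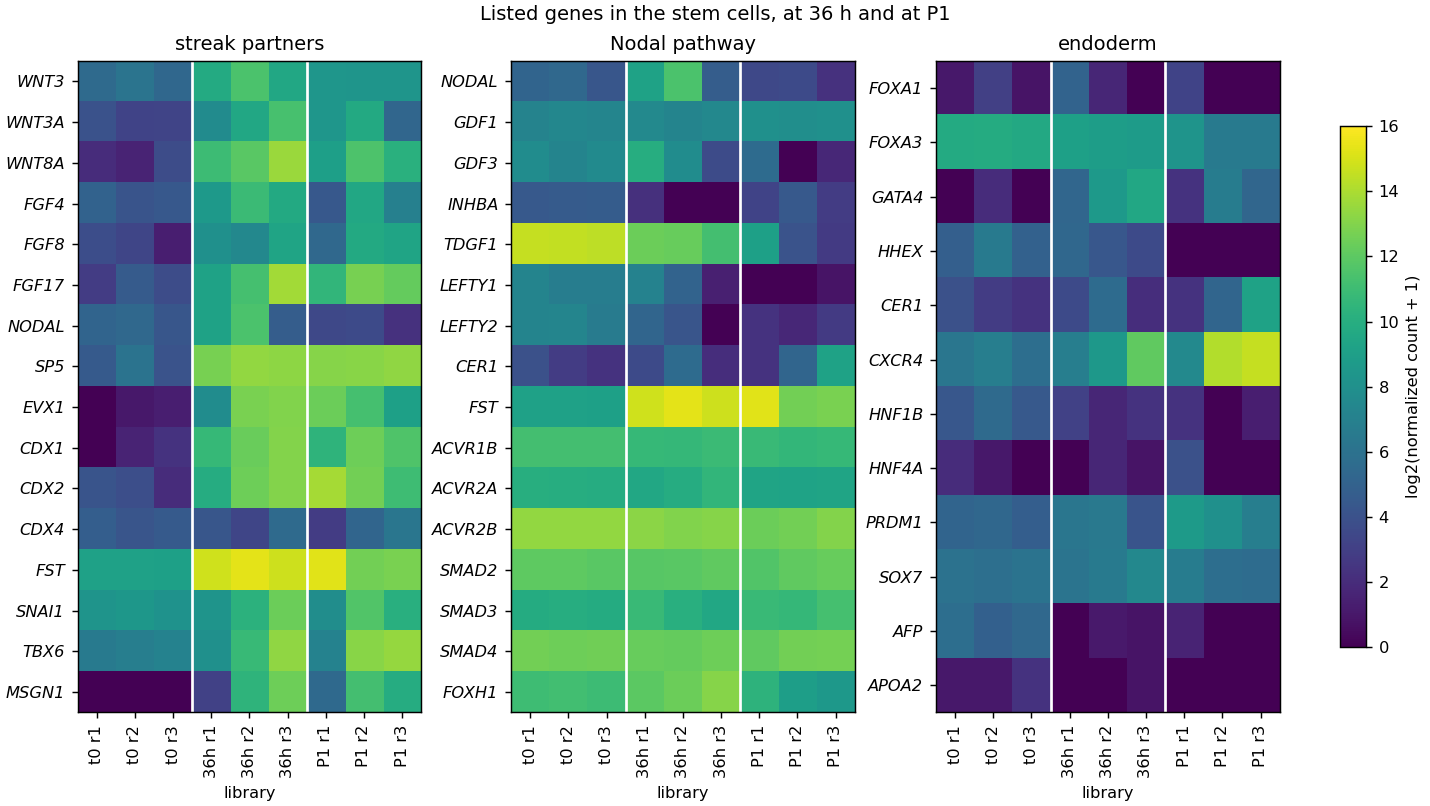
log2(normalized count + 1) of the listed streak partners, NODAL pathway genes and endoderm genes (rows) in the 9 libraries of t0, 36 h and P1 (columns), on 1 color scale from 0 to 16. Streak partners such as *SP5* brighten in every 36 h library (6775 to 10678 normalized counts), and *NODAL* does so in r1 and r2 alone.

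Among 16 genes known to accompany the members in the streak and caudal epiblast, 7 rose at 36 h, where 0.354% of all genes tested did, and none fell, with a median log2 fold change of 6.03 against -0.03 over all genes tested. *EVX1*, a homeobox gene of the posterior streak, did not exceed 3 counts at t0 and was at least 1764-fold higher, and *MSGN1*, likewise, at least 822-fold. *CDX1*, a caudal homeobox gene, rose by 11.20 (SE 0.26, edgeR adjusted p = 0.000329). Of 12 genes induced by WNT signaling, 5 rose, against the same 0.354%, with a median of 3.78. *SP5* rose by 8.18 and *LEF1*, the nuclear partner of beta-catenin, by 6.90, and *DKK4*, a secreted WNT inhibitor, was at least 105-fold higher.

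The lists for the fates downstream of the streak are read against the 0.766% of all genes tested that passed at 36 h. Of 13 paraxial mesoderm genes 11 were tested and 1 rose, *MSGN1*, while the median log2 fold change of the list was 3.37. *TBX6* was at 4.00 (SE 0.99) without passing (edgeR adjusted p = 0.0644). None of the 7 lateral and cardiac mesoderm genes tested passed, none of the 9 endoderm genes and none of the 6 node and notochord genes. Nor did any of 3 intermediate mesoderm, 9 neuronal and 6 neural crest genes tested. Lists this short can hold no call at such a share without being silent. Median log2 fold changes were 2.16 for the lateral and cardiac list, 0.59 for endoderm and -0.49 for node and notochord. *GATA4* of the first 2 lists was named after its values were seen. It was at 38.1, 382 and 773 at 36 h and at 0, 3.11 and 0 at t0. *FOXA3* of the endoderm list, named likewise, was lower at 36 h, at 548, 474 and 430 against 893, 915 and 800. Of 16 NODAL pathway genes 1 rose, *FST*, an antagonist of activin, by 5.84 (SE 0.17, edgeR adjusted p = 0.00066), and the list's median of -0.04 was near that of all genes. *CER1*, a NODAL antagonist of anterior endoderm, had 11.1, 47.3 and 3.33 normalized counts at 36 h against 14.5, 6.22 and 3.97 at t0, without passing. None of the 8 pluripotency genes passed in the comparison with t0. *POU5F1* had 47680, 37539 and 20778 at 36 h against 58628, 56837 and 55997 at t0.

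At P1 *TBXT* had 2876, 2963 and 549 normalized counts and *MIXL1* 3887, 4033 and 1420, so each P1 library of both was above every t0 library. They were 2 of the 8 tested members, against 18% of all genes tested. *GATA6* had 1 count in P1 r1, as in 2 t0 libraries, and is not counted. These 2 of the 8 tested members passed against t0 as higher, where 3.2% of the 21750 genes tested did so and 8.75% passed in either direction. The log2 fold changes were 7.54 for *TBXT* (SE 1.61, edgeR adjusted p = 0.00098) and 5.87 for *MIXL1* (SE 1.14, edgeR adjusted p = 0.000385). Both calls were lost without replicate 2, at 7.12 (edgeR adjusted p = 0.0282) and 5.46 (edgeR adjusted p = 0.0334), and when the compared libraries alone were fitted (0.0111 and 0.0161), and that of *TBXT* also without replicate 3 (0.0205). Both passed without the library P1 r1. Over the alternatives the adjusted p ran from 1.89e-09 to 0.0282 and from 5.99e-09 to 0.0334.

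The remaining members were uneven at P1. *EOMES* stayed at 766 normalized counts in r1 and was at 4.96 and 2.37 in r2 and r3, within or under the range of t0. *FOXA2* had 51.4, 0 and 3.95, above t0 in r1 alone. *MESP1* had 2.05, 19.8 and 412, highest in r3 as at 36 h. *GATA6* had 2.05, 21.1 and 21.3, *GSC* 2.05, 12.4 and 7.89 and *LHX1* 8.22, 2.48 and 4.74. None of these 6 passed against t0. The fold change of *EOMES* turned with a single library, from 3.90 in all (SE 1.77, edgeR adjusted p = 0.0928) to -1.58 without P1 r1 (edgeR adjusted p = 0.545).

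Between 36 h and P1 all 8 tested members had lower fitted values, with a median log2 fold change of -3.44 against -0.03 over all genes tested. Of the 8, 1 passed, where 0.726% of the 21750 genes tested passed as lower and 1.2% passed in either direction. *GATA6* fell by 6.01 (SE 1.18, edgeR adjusted p = 0.00398), which was 43.1-fold in r2 and 149.8-fold in r3. The groups overlapped because *GATA6* was at 1 count at 36 h in r1. The call was lost without replicate 2 (edgeR adjusted p = 0.233), without replicate 3 (0.185) and with the compared libraries alone (0.189), in a range of 3.06e-05 to 0.233. *TBXT* was lower at P1 by 1.14-fold in r1, 9.42-fold in r2 and 50.4-fold in r3, with a log2 change of -3.71 (SE 1.27, edgeR adjusted p = 0.0702). *MIXL1* was lower by 2.22-fold, 14.1-fold and 24.4-fold, with -3.68 (SE 0.99, edgeR adjusted p = 0.0234). Neither passed in this test, while *MIXL1* passed in DESeq2 (-3.65, adjusted p = 0.00172, in a range of 0.00172 to 0.316 over the alternatives) and at an FDR under 5%.

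Without replicate 1, *TBXT* (-4.42, edgeR adjusted p = 0.00729), *MIXL1* (-4.18, 0.00353), *EOMES* (-8.48, 8e-04) and *GATA6* passed, where 523 of 22488 genes passed as lower. Without the library P1 r1 alone, *EOMES* (-8.43, edgeR adjusted p = 0.00572) and *GATA6* did, where 480 of 21727 genes passed as lower. With all libraries *EOMES* had -2.95 (SE 1.59, edgeR adjusted p = 0.273, in a range of 8e-04 to 0.867 over the alternatives). The library of the first differentiation thus decided the size of the *EOMES* change at this step.

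A few listed genes also fell at P1, where 0.726% of all genes tested fell and 0.469% rose. The number of calls at this step depended on the libraries fitted. Over all genes, 0 passed as higher and 2 as lower without replicate 2, 2 and 10 without replicate 3, and none of 18333 with the compared libraries alone. *NODAL* fell by 6.46 (SE 1.13, edgeR adjusted p = 0.00279), from 593, 2783 and 25.8 normalized counts to 10.3, 11.2 and 3.95. Of the 16 NODAL pathway genes, *TDGF1*, the NODAL coreceptor, and *FOXH1*, the forkhead partner of SMAD2, also fell, by 4.61 and 3.33, and none rose. Of the 16 streak partners, 2 fell, *NODAL* and *WNT3*, the latter by 2.12. *KDR*, a receptor of vascular and cardiac progenitors, was the 1 lateral and cardiac gene that fell, by 4.40. *LEF1* rose by 2.09 (SE 0.43, edgeR adjusted p = 0.0046), the 1 of 12 WNT response genes that passed.

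Against t0, 11 of the 16 streak partners and 8 of the 13 paraxial mesoderm genes had risen at P1, where 3.2% of all genes had, while 4 of the 8 pluripotency genes had fallen, where 5.54% of all genes had. Other lists held genes that passed too. In the lateral and cardiac list *SNAI2* (5.10), *PDGFRA* (5.00) and *BMP4* (2.11, named after its value was seen) rose and *KDR* fell (-4.16). *OSR1* of intermediate mesoderm rose (7.64), and of the node list *CHRD* rose (3.81) and *TDGF1* fell (-7.22). WNT response genes that rose included *DKK1* (10.04), *LEF1* (9.09) and *SP5* (8.24). Of the neural crest list, which also holds *SNAI2*, *FOXD3* (-7.85) and *ETS1* (-3.93) fell and *SNAI2* rose (5.10). When the compared libraries alone were fitted, 22 genes passed as higher and 18 as lower among all tested. Of 10 endoderm genes tested 2 had risen, and they were named after their values were seen. They were *CXCR4*, a chemokine receptor that mesoderm also carries, and *PRDM1*, a repressor used in several embryonic lineages. *CER1* was at 4.11, 36.0 and 602 at P1.

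**Figure D3:**
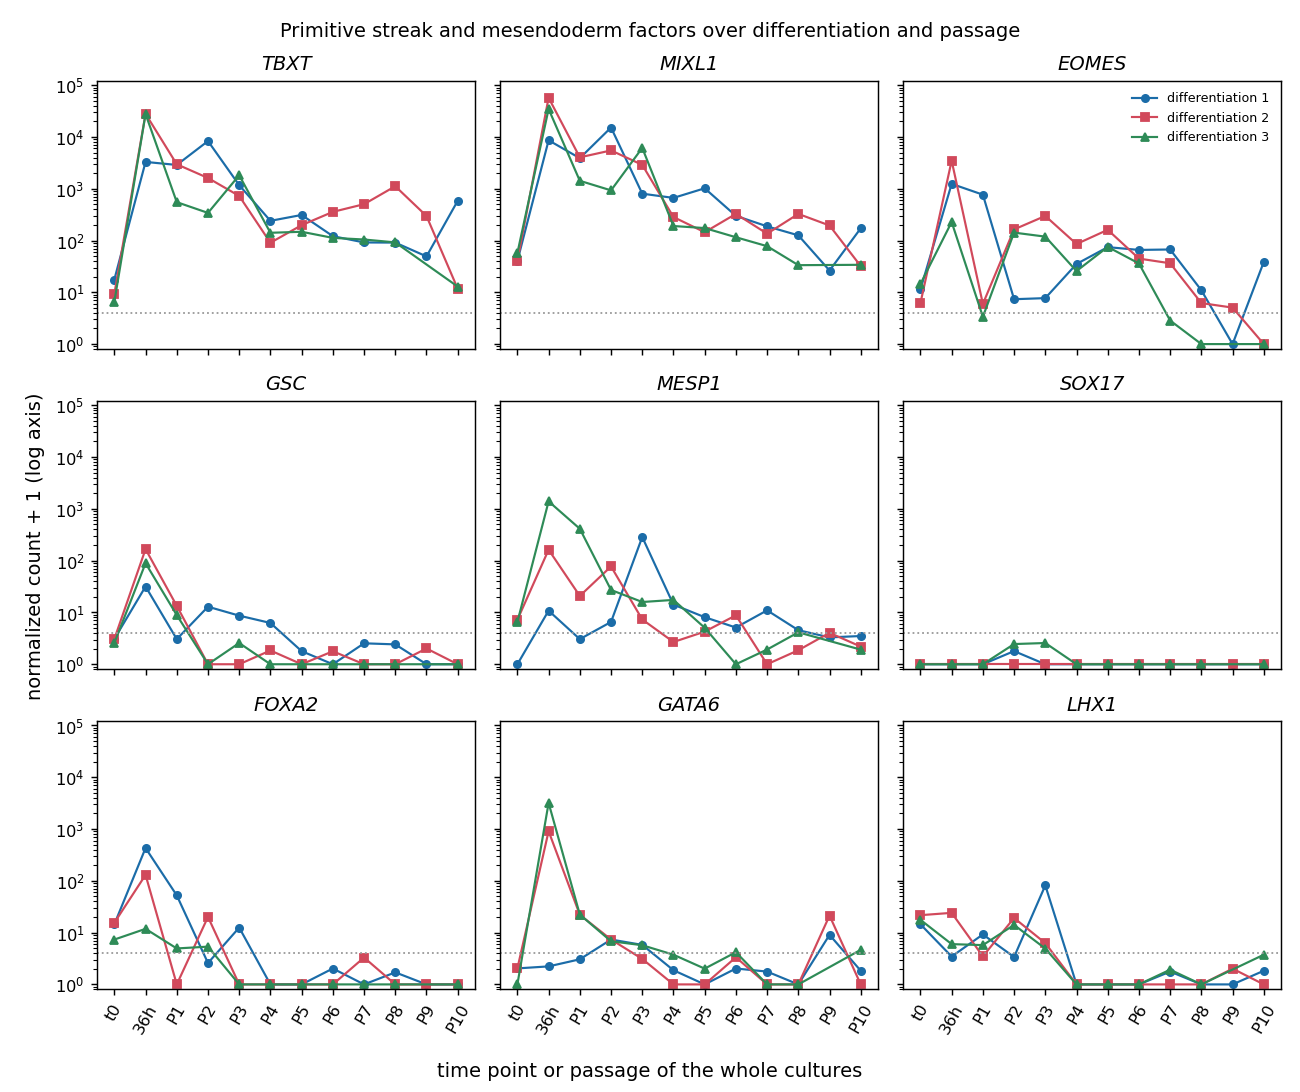
Normalized count + 1 on a log axis for each factor in the 35 whole cultures from t0 to P10, with 1 line per differentiation (blue circles r1, red squares r2, green triangles r3, which has no point at P9). The dotted line marks the level of 3 counts. *TBXT* and *MIXL1* peak at 36 h in r2 and r3 and at P2 in r1 (8319 and 15190), and *SOX17* stays at the bottom.

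The differentiations took different courses after P1, and that of r1 is given first. Its *TBXT* rose 2.89-fold from P1 to P2, to 8319 normalized counts, while that of r2 and r3 was lower at P2, at 1610 and 340. Its *MIXL1* reached 15190 at P2, above its own 36 h value of 8612, against 5483 and 928 in r2 and r3. *EOMES* dropped in r1 from 766 to 6.35, and in r2 and r3 it went from 4.96 and 2.37 to 163 and 141. At P3, r1 held 285 counts of *MESP1* and 80.6 of *LHX1*, its highest value in the 47 libraries, against at most 14.9 and 5.27 in r2 and r3. In that library *TBX6* was at 5285 and *MSGN1* at 549, and *MESP2* and *RIPPLY2*, somite genes named after their values were seen, were at 1996 and 2025. In r3 such levels stood at P1, where *MESP2* was at 1830, *RIPPLY2* at 1123 and *TBX6* at 11297, beside the 412 of *MESP1*. These differences within 1 differentiation have no replicate and were not tested.

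Between P1 and P3 none of the 8 tested members passed, where 1.09% of 21750 genes did. *TBXT* had 1171, 724 and 1818 normalized counts at P3 (log2 fold change -0.23, SE 1.17, edgeR adjusted p = 0.946) and *MIXL1* 801, 2890 and 6142 (0.56, SE 0.92, edgeR adjusted p = 0.786). *EOMES* had 6.72, 297 and 118, and it passed, as higher, without replicate 1 alone.

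From P4 to P10, 20 whole cultures held a low level of *TBXT*, from 10.7 to 1116 normalized counts with a median of 130, above every t0 library in 18 of the 20. *MIXL1* ranged from 25.3 to 1018 with a median of 172, above every t0 library in 16. *EOMES* ranged from 0 to 160 with a median of 34.6, above every t0 library in 12, and from P8 on it was at or under 9.93 in all but r1 of P10 (37.6). *FOXA2* and *LHX1* did not exceed 3 counts in each of the 20 and *GSC* was above 3 counts in 1. *GATA6* passed 3 counts in 3 of them, among them both P9 cultures at 8.05 and 20.3. *MESP1* reached at most 16.5. In order of their means, neighboring conditions of *TBXT* overlapped from 36 h down to P4, and the mean of t0 was the lowest, although 2 of the 3 P10 libraries lay within its range.

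*TBXT* at P8 was at 90.1, 1116 and 90.9 normalized counts, with r2 highest, and was the 1 of 8 tested members that passed against t0 (log2 fold change 5.18, SE 1.55, edgeR adjusted p = 0.00751), where 7.34% of 21750 genes passed as higher and 15.3% in either direction. Without replicate 2 it was at 3.20 (edgeR adjusted p = 0.174), without replicate 3 at 5.42 (0.0419) and with the compared libraries alone at 4.47 (0.0157), so the call was lost in each, in a range of 3.43e-05 to 0.174. *MIXL1* at P8 had 125, 325 and 32.4 and did not pass (1.56, SE 1.03, edgeR adjusted p = 0.216). *LHX1* was at 0 in all P8 libraries and at least 6.47-fold below t0, and *FOXA2* was at least 4.37-fold below. Both had means under the minimum of 100 and could not pass. *LHX1* had an edgeR adjusted p = 0.00437 and passed with no minimum of the mean, while *FOXA2* had an edgeR adjusted p = 0.0181. Between P8 and P10 no member passed, where 0.0874% of genes did. *TBXT* at P10 was at 583, 10.7 and 11.9, high in r1 and back at the level of t0 in r2 and r3, with a log2 change of -1.05 (SE 1.27, edgeR adjusted p = 0.741).

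**Figure D4:**
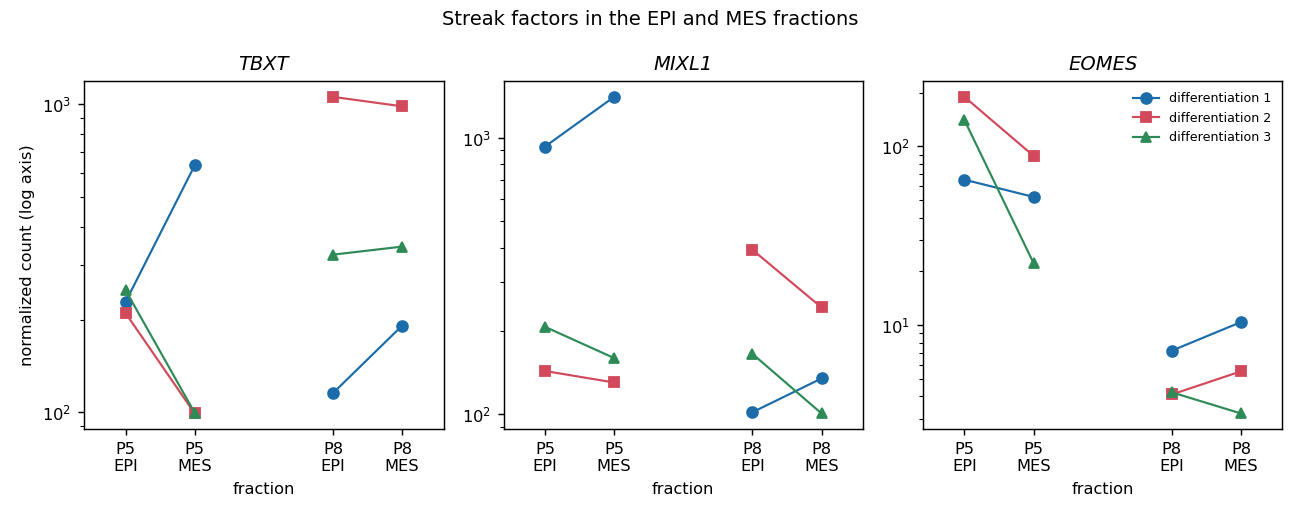
Normalized counts on log axes of *TBXT*, *MIXL1* and *EOMES* in the EPI and MES fractions of P5 and P8, with a line joining the fractions of 1 differentiation (blue circles r1, red squares r2, green triangles r3). *TBXT* at P5 goes up from EPI to MES in r1 (228 to 633) and down in r2 and r3 (210 to 99.2 and 249 to 99.7).

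The fractions asked whether the residual factors lie with epithelial or mesenchymal cells. At P5 *SOX10* (3.10, edgeR adjusted p = 0.0093) and *SNAI2* (1.59, edgeR adjusted p = 0.0093), NC genes, were higher in MES, as its label says. *TBXT* had 228, 210 and 249 normalized counts in P5 EPI and 633, 99.2 and 99.7 in P5 MES, and its direction in r1 was opposite to that in the other pair. The mean difference on the log2 scale was -0.28 (SE 0.60, edgeR adjusted p = 0.779). *MIXL1* had 928, 143 and 207 in EPI and 1403, 130 and 160 in MES (0.07, SE 0.21, edgeR adjusted p = 0.848), with r1 high in both fractions. *EOMES* had 65.2, 189 and 140 in EPI and 52.2, 88.5 and 22.3 in MES, lower in MES in 3 of 3 differentiations without passing (-1.29, SE 0.45, edgeR adjusted p = 0.104). None of these 3 tested members passed, where 1.18% of 18276 genes did, a share that fell to 0 when TMM factors were computed over the 6 libraries of the fit.

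At P8 *TBXT* had 115, 1056 and 325 normalized counts in EPI and 191, 984 and 345 in MES (0.22, SE 0.18, edgeR adjusted p = 0.569), and *MIXL1* 102, 393 and 165 against 135, 243 and 101 (-0.34, SE 0.27, edgeR adjusted p = 0.56). The spread between differentiations exceeded that between fractions for both. In edgeR's test none of the 18836 genes passed at P8, 3352 had an unadjusted p under 0.05, and DESeq2 passed 189 as higher and 17 as lower, none of them a member. *EOMES* was at 3.21 to 10.4 in all P8 fractions. The difference between fractions did not change from P5 to P8 past the threshold for any of the 3 tested members or for any of 19476 genes (1139 at an unadjusted p under 0.05, and 2 in DESeq2).

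For the 6 members that reached a mean of 100 normalized counts in at least 1 condition, the genes with the most similar course were sought among 15073 genes by Pearson's r over the 16 condition means of log2 CPM. These points share differentiations and the 36 h peak, and the values are a description. *TBXT* was most like *MIXL1* (r = 0.93), then *FBXL14* and *TCHP* (0.92 each). *MIXL1* was most like *CDX1* (0.97), *MESP1* (0.96) and *WNT8A* (0.95), and *MESP1* was most like *MIXL1* (0.96), *CBWD6* (0.94) and *CDX1* (0.94). *FOXA2* was most like *NODAL* (0.98), *LINC01356* (0.97) and *EIF3K* (0.96). *GATA6* was most like *LINC01867*, *C18orf21* and *NIPA2* (0.91 each) and *EOMES* like *FAM86B1* (0.92), *ELP6* (0.91) and *ZNF730* (0.88). Among the members, *TBXT* had r = 0.85 with *MESP1*, 0.72 with *GATA6*, 0.63 with *EOMES* and 0.55 with *FOXA2*.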

How the data were processed

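RNA of H9 cells was sequenced by the authors as single-end, polyA-selected libraries. According to the submitters' processing notes, reads were handled with cutadapt 1.16, STAR 2.5.2b and RSEM 1.3.0 on GRCh38; the annotation release and strand setting are not given in the sources used here. The authors deposited RSEM expected counts, of which 9.33% are not whole because RSEM divides shared reads between genes, and TPM, which RSEM scales by transcript length. Replicates were not pooled. Symbols and coordinates came from GENCODE 29, which matched 57447 of the 58051 identifiers.

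Expected counts were rounded and tested with edgeR 4.0.16 (TMM factors over 47 libraries, filterByExpr, glmQLFit and glmQLFTest) in R 4.3.3, with Benjamini-Hochberg adjustment over all genes tested and the replicate number as a block, because the design describes each number as 1 time course. Deviations from group means correlated by -0.01 on average between same-numbered t0 and 36 h libraries, by 0.20 between 36 h and P1 and by 0.53 between P4 and P5. Fits held the compared libraries alone for 36 h against t0 and the fractions, and the 35 whole cultures for the passages. DESeq2 1.42.0, other filters, factors, thresholds and fits, and each replicate left out were alternatives. Leaving out single libraries of 36h or P1 and computing TMM factors within a fit were added after seeing the data. The members and gene lists were chosen with earlier results of these data known. Named genes are all members and, per list and comparison, genes taken from the up to 3 passing ones with the largest change. Not every such gene is named in each comparison. *NODAL*, *CER1*, *POU5F1*, *NANOG*, *SOX2*, *TBX6* and *MSGN1* are also named beside members whether or not they passed, and genes outside this rule are said to be chosen after their values were seen. The limit of 3 counts covers counting error alone, as PCR copies were not marked.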

Additional observations from a re-analysis of the deposited data

How the results depend on the processing

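The number of members that passed moved in several comparisons. The share of all genes tested that passed in the same fit is given in brackets. At 36 h against t0, where 2 members passed (0.766%), the number was 3 with no replicate block (3.38%) and 6 with DESeq2 (7.25%). It was 5 with no filter on low counts (2.58%) and 3 with the 35 whole cultures in the fit (2.69%). Without 36h replicate 1 it was 3 (0.354%), and at an FDR under 5% it was 5 (5.74%). At P1 against t0, where 2 passed (8.75%), it was 0 with the compared time points only (0.21%). At P1 against 36 h, where 1 passed (1.2%), it was 2 with DESeq2 (2.64%), without P1 replicate 1 (3.76%) and at an FDR under 5% (2.88%). It was 0 with the compared time points only (0%) and with the stricter filter (1.41%), under which *GATA6* was not tested. At P8 against t0, where 1 passed (15.3%), it was 0 with the compared time points only (16.7%). With no minimum of the mean it was 2 (24.8%), the added one being *LHX1*. Leaving out each replicate in turn gave 0 to 4 members at 36 h against t0 (0 to 3.29% of all genes). It gave 0 to 2 at P1 against t0 (2.08 to 11.6%) and 0 to 4 at P1 against 36 h (0.00888 to 4.21%). At P3 against P1 it gave 0 to 1 (0.00888 to 3.64%), and at P8 against t0 0 to 1 (9.29 to 16.6%). The cause of these shifts was not tested.

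The block stands for the serially passaged differentiation. Leaving it out raised the genes that passed at 36 h against t0 from 67 higher and 78 lower to 233 and 385, and lowered those at P5 between fractions from 134 and 81 to 0 and 0. It changed no other member's call than that of *EOMES* at 36 h. With DESeq2 and the block, 476 and 896 passed at 36 h and 493 and 445 at P5.

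Fold changes that turned sign were those of members that had not passed. *FOXA2* at P1 against t0 (-0.10) became 0.56 with no replicate block and 0.069 with DESeq2, and *EOMES* became -1.58 without P1 replicate 1. *MIXL1* at P3 against P1 (0.56) became -0.26 with the compared time points only, and *TBXT* (-0.23) became 0.0026 without P1 replicate 1. *TBXT* between the P5 fractions (-0.28) became 0.28 with no replicate block and 0.078 with all 47 libraries in the fit. With each replicate left out, log2 fold changes at P1 against t0 ran from -1.68 to 5.73 for *EOMES* and from -1.73 to 0.64 for *FOXA2*. Those of *LHX1* at P1 against 36 h ran from -1.75 to 0.67. At P3 against P1 they ran from -1.58 to 0.25 for *TBXT* and from -1.11 to 1.08 for *MIXL1*, and at P10 against P8 from -5.30 to 1.25 and from -2.20 to 0.31. Between the P5 fractions they ran from -1.20 to 0.29 for *TBXT* and from -0.26 to 0.29 for *MIXL1*, at P8 from -0.012 to 0.40 for *TBXT*, and for the difference of these differences from -0.93 to 1.21.

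The lists of most similar genes depended on the measure, since 3 of the 18 genes named stayed with Spearman's rho and 4 with log2(TPM + 1). Depth limits *SOX17*, which did not exceed 3 counts in any library, and *FOXA2* and *LHX1* in the whole cultures after P3, which did not either. *GSC* exceeded 3 counts after P1 in 3 libraries, P2, P3 and P4 of r1, with at most 15.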
